A study of Saccharomyces cerevisiae with 20 samples.

Results

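The chitin and glucan synthesis genes of budding yeast (Saccharomyces cerevisiae) were followed through the cell cycle in a wild-type strain and in a strain lacking SET1. They were taken as 9 named genes, found by their locus tags among the 6532 features of the deposited tables, and all 9 had a row of their own and passed the minimum of 10 reads on average for a test. They are the chitin synthase genes CHS1 (YNL192W) and CHS3 (YBR023C), the genes of CHS3 export and activation CHS7 (YHR142W) and SKT5 (YBL061C), the glucan synthase gene FKS1 (YLR342W), the glucan-remodelling genes GAS1 (YMR307W) and GAS5 (YOL030W), and the chitin-glucan crosslinking genes CRH1 (YGR189C) and UTR2 (YEL040W). The wild type (WT) was W303a, a laboratory strain of mating type a, and the mutant, labelled delta_set1 and written set1Δ here, lacks Set1, the enzyme that methylates lysine 4 of histone H3. Both strains grew at 30 °C in rich YPD medium with glucose. Each gave 1 library from an asynchronous culture and 9 libraries from cells arrested in G1 by 5 µg/ml of the mating pheromone α-factor for about 2 h, checked to be at least 95% unbudded, washed, and sampled every 15 min from 0 to 120 min after release. The assay, PAT-seq, sequences polyadenylated RNA from its 3′ end, so that each feature has a count of reads and, over those reads with a tail, a mean length of the poly(A) tail.

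The yeast cell wall is a layer of β-1,3-glucan to which β-1,6-glucan, mannoproteins and a little chitin are attached. Chitin is made by separate synthases at different places and times: Chs3 makes the ring at the bud neck and the chitin of the lateral wall and of the mating projection, Chs2 makes the primary septum, and Chs1 acts in repair after cell separation. Glucan is made at the plasma membrane by Fks1 or its paralog, regulated by the GTPase Rho1, elongated outside the membrane by enzymes of the Gas family, and joined to chitin by Crh1 and Utr2. Cells of mating type a that sense α-factor stop in G1 and grow a projection, which needs new wall.

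Libraries held 476565 to 2413354 reads. SET1 itself lay between 30.0 and 64.7 CPM (read counts per library scaled to equal size, with TMM factors) in WT and between 5.84 and 15.1 CPM in set1Δ, so that the strains did not overlap. The ends of the deletion are not given in the sources used here. Reads from outside it would check nothing. Between 32.2% and 91.7% of the reads of a WT library carried a poly(A) tail, with 51.3% at 105 min and 32.2% at 120 min, against 52.4% to 76.3% in set1Δ, so calls of the 9 genes and counts of the lists that change without the libraries of 105 and 120 min are also given without them. Of the a-cell markers all 6 were detected, and 4 were lower in set1Δ (3 without 105 and 120 min), as were all 4 markers of pheromone-arrested cells. Of 4 α-cell markers, 3 had too few reads to test; STE3, the a-factor receptor of α cells, reached no more than 5.04 CPM, MF(ALPHA)1 9.12 CPM, SAG1 28.6 CPM and MF(ALPHA)2 50.2 CPM, the last in set1Δ at 0 min. MF(ALPHA)2 could be tested without 105 and 120 min and was then higher in set1Δ. The fusion gene FUS1, a marker of the pheromone response, stood in WT at 453 CPM at 0 min and 85.0 CPM at 60 min, and in set1Δ at 281 CPM at 0 min and 3.81 CPM at 30 min. From 15 to 120 min the 4 pheromone markers summed to 517 to 2069 CPM in WT and 38.5 to 136 CPM in set1Δ. Over the same times the 6 a-cell markers summed to 2435 to 13576 CPM in WT and 479 to 8261 CPM in set1Δ. At 0 min the a-cell sum was not lower in set1Δ, at 19796 CPM against 18902 CPM in WT. Each strain was 1 culture and each time point 1 library per strain, so p-values measure the spread between time points and not between cultures. Strains were compared at equal times, not at equal positions in the cycle.

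Over the whole series, CHS1 and CHS3 were lower in set1Δ and the FKS1 row was higher, while CHS7, SKT5, GAS1, GAS5, CRH1 and UTR2 did not pass (edgeR quasi-likelihood, adjusted p below 0.05, time point as a factor, n = 10 libraries per strain). That is 1 of 9 higher, where 8.44% of 5060 features tested were called higher, and 2 of 9 lower, where 10.5% were called lower. Without 105 and 120 min 1 of 9 was higher and 3 were lower, SKT5 being the third, where 12.9% and 13.9% of 5084 features were. The median log2 difference of the 9 genes was -0.01, as was that of all features tested. The plot of levels by library shows the 9 genes and YLR342W-A, a short gene just downstream of FKS1.

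**Figure D1:**
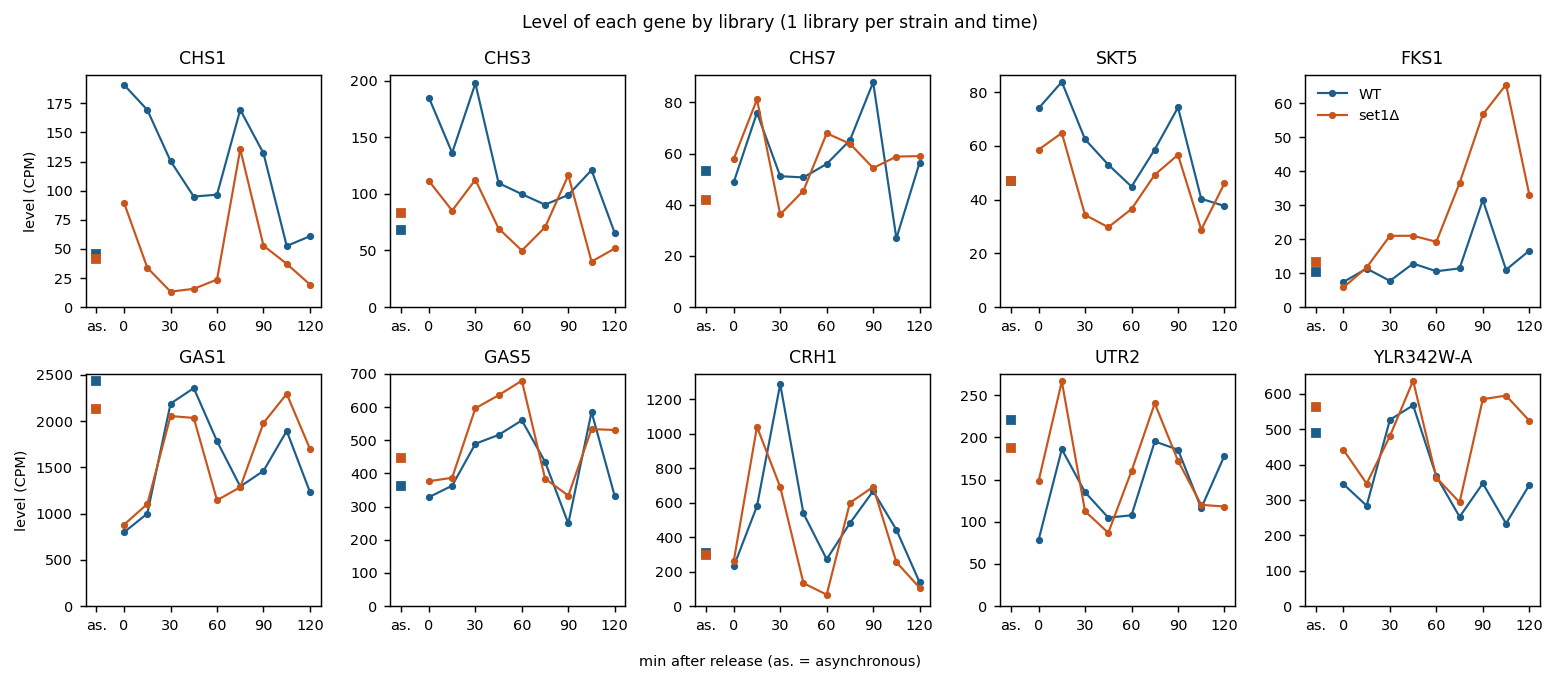
Level (CPM, y axes from 0 and different for each gene) of the 9 genes and of YLR342W-A against minutes after release from α-factor, with the asynchronous culture as squares at the left. Each point is 1 library, WT in blue and set1Δ in orange. CHS1 of set1Δ lies below WT at every time, and CRH1 rises to 1289 CPM at 30 min in WT and to 1041 CPM at 15 min in set1Δ.

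Chitin synthase I was the gene of the set with the widest gap between strains. CHS1 (chromosome XIV, 276502 to 279897, plus strand, assembly R64) ranged in WT from 45.7 CPM through a median of 111 CPM to 191 CPM, and in set1Δ from 13.3 CPM through a median of 35.5 CPM to 136 CPM. It was lower in set1Δ at 10 of 10 times, although the ranges overlapped. The log2 difference was -1.41 ± 0.25 (SE; adjusted p = 0.000988, edgeR), a level 2.66-fold lower. The gap was smallest in the asynchronous cultures, where WT had 45.7 CPM and set1Δ 41.0 CPM. It was 2.13-fold at 0 min, 5.00-fold at 15 min and 9.41-fold at 30 min, where WT had 125 CPM from 211 reads and set1Δ 13.3 CPM from 7 reads. At 75 min, when both strains had their second maximum, WT stood at 169 CPM and set1Δ at 136 CPM, 1.25-fold apart. The pheromone markers given above were also lower in set1Δ after release, and their part in the CHS1 difference was not tested.

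The levels of CHS1 changed over time in both strains. With a smooth curve of time fitted to each strain, the adjusted p was 0.0163 in WT and 0.000717 in set1Δ (edgeR F-test of the spline terms, 18 libraries from 0 min on). In set1Δ CHS1 stood at 89.5 CPM at 0 min, fell to 13.3 CPM at 30 min, stayed between 15.7 and 23.7 CPM at 45 and 60 min, was at 136 CPM at 75 min and returned to 19.4 CPM at 120 min. In WT it declined from 191 CPM at 0 min only to 94.9 CPM at 45 min before the second maximum, and then to 52.5 CPM at 105 min. The test of the difference between the curves gave an adjusted p = 0.0451. This call was lost in 13 of 18 fits that left out 1 library, with adjusted p from 0.0230 to 0.339, and with poly(A) reads only (0.106) or a spline of 4 degrees of freedom (0.328). The WT change over time was lost in 6 of these 18 fits, that is without WT 75, 90, 105 or 120 min or without set1Δ 105 or 120 min, with an adjusted p up to 0.0951. With a spline of 4 degrees of freedom neither strain passed, with an adjusted p of 0.243 in WT and 0.0679 in set1Δ.

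CHS3 (chromosome II, 284428 to 287925, minus strand), the synthase of most of the chitin in the wall, ran in WT from 65.3 CPM through a median of 105 CPM to 197 CPM. In set1Δ it ran from 40.2 CPM through a median of 76.9 CPM to 116 CPM. It was lower in set1Δ at 8 of 10 times, all but the asynchronous pair (68.2 CPM in WT, 83.3 CPM in set1Δ) and 90 min (99.1 and 116 CPM), and the ranges overlapped. The log2 difference was -0.55 ± 0.16 (SE; adjusted p = 0.0209, edgeR). The call was lost without 45 min (adjusted p = 0.0526), 60 min (0.0554) or 105 min (0.0518). No change of CHS3 over time was called, with an adjusted p of 0.206 in WT and 0.470 in set1Δ. Without 105 and 120 min both strains passed (0.0223 and 0.0369), and WT also passed without 0 min (0.0392).

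The sequences around the start codons of CHS1 and CHS3 are shown because these genes were called lower in set1Δ and stood highest above the asynchronous level in WT arrest. Each is 250 bases before the start codon and the first 50 of the coding sequence, 5′ to 3′ on the gene's strand, from the RefSeq genome of assembly R64 at chrXIV:276252-276551 (plus) and chrII:287876-288175 (minus). Capitals mark the letters TGAAACA, the element bound by the pheromone-responsive factor Ste12, on either strand.
CHS1: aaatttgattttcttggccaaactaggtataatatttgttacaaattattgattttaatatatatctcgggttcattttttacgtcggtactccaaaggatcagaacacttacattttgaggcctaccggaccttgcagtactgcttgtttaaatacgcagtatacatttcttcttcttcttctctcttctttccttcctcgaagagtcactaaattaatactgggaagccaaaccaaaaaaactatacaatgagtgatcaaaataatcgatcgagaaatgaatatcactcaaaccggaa
CHS3: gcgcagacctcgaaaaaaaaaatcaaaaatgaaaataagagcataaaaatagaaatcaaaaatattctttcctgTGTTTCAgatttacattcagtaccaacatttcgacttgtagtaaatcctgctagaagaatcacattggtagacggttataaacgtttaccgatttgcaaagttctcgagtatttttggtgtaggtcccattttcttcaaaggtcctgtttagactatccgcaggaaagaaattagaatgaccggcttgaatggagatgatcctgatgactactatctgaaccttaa
The element occurred once in the CHS3 window, on the opposite strand at base -176 from the start codon, and not in the CHS1 window. Among 6001 such windows of the genome 7.50% held it, and of the 9 genes CHS3 and CRH1 did. The other motifs described here, found in UTR2, CHS7 and GAS5, occurred in neither window.

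The level of CHS1 and CHS3 in arrest could be set beside growth only from 1 library per state and strain, so the next values carry no test. In WT, CHS1 went from 45.7 CPM in the asynchronous culture to 191 CPM at 0 min, 4.17-fold on the CPM scale, and CHS3 from 68.2 to 185 CPM, 2.71-fold. In set1Δ, CHS1 went from 41.0 to 89.5 CPM, 2.18-fold, and CHS3 from 83.3 to 111 CPM, 1.34-fold. GAS1 moved the other way in both strains, from 2432 to 799 CPM in WT (3.04-fold lower) and from 2135 to 881 CPM in set1Δ (2.42-fold lower). UTR2 was 2.81-fold lower in WT (220 against 78.4 CPM) and 1.27-fold lower in set1Δ (188 against 148 CPM). In terms of log2(CPM + 1), 2 of 9 genes were at least 2-fold above and 2 at least 2-fold below the asynchronous culture in WT, where 10.3% and 9.35% of all tested features were. In set1Δ 1 was above, where 2.81% were, and 2 were below, where 4.17% were; the second of these was the FKS1 row, whose value at 0 min rested on 9 reads. The other genes, CHS7, SKT5, GAS5 and CRH1, moved by no more than 0.64 on the log2 scale. The summed CPM of the 4 pheromone markers went from 120 to 3738 in WT and from 104 to 2667 in set1Δ over the same libraries, and their part in these differences was not tested.

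**Figure D2:**
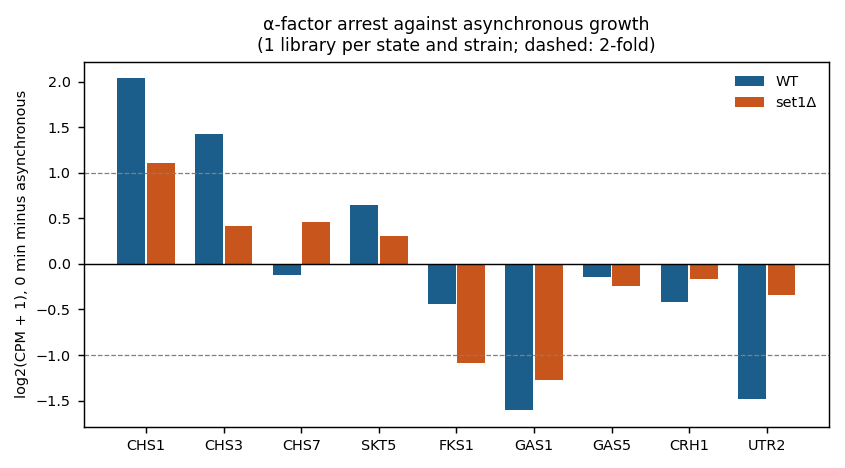
Difference in log2(CPM + 1) between the α-factor-arrested culture (0 min) and the asynchronous culture for each gene, WT in blue and set1Δ in orange; each bar compares 1 library with 1 library and has no error. Dashed lines mark 2-fold. In WT, CHS1 and CHS3 lie above the upper line and GAS1 and UTR2 below the lower one.

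The genes that bring Chs3 to the membrane and turn it on were not called between the strains. CHS7 (chromosome VIII, 383538 to 384488, plus strand), the chaperone that lets Chs3 leave the endoplasmic reticulum, had 26.9 to 87.8 CPM in WT (median 54.5) and 36.2 to 81.1 CPM in set1Δ (median 58.4). The ranges overlapped, with set1Δ lower at 5 of 10 times. The log2 difference was -0.01 ± 0.15 (SE, adjusted p = 0.984, edgeR). An approximate 95% interval, from the SE and a normal distribution, ran from -0.29 to 0.28. With few libraries such an interval can be too narrow. Its sign turned under several settings, and no change over time was called for CHS7 in either strain (adjusted p = 0.621 in WT and 0.883 in set1Δ).

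SKT5 (chromosome II, 105316 to 107406, minus strand), the activator of Chs3 at the bud neck, had 37.6 to 83.8 CPM in WT (median 55.8) and 28.8 to 64.8 CPM in set1Δ (median 46.5). It was lower in set1Δ at 8 of 10 times, and in both strains the highest library was that of 15 min. The log2 difference of -0.34 ± 0.12 (SE) did not pass (adjusted p = 0.0590, edgeR). It passed without 120 min (0.0168), without 105 and 120 min (0.0231) and when the fit held each library's poly(A) share (0.0492). Over time the adjusted p was 0.110 in WT and 0.139 in set1Δ.

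FKS1 (chromosome XII, 809997 to 815627, plus strand), the catalytic subunit of β-1,3-glucan synthase in growing cells, had few reads in the deposited row. WT libraries held 5 to 42 reads, 7.40 to 31.5 CPM with a median of 11.2, and set1Δ libraries 9 to 109 reads, 5.79 to 65.4 CPM with a median of 21.0. The row was higher in set1Δ at 9 of 10 times, all but 0 min. The log2 difference was 1.00 ± 0.21 (SE; adjusted p = 0.00366, edgeR). In set1Δ the row changed over time (adjusted p = 0.00105, edgeR spline test). It went from 5.79 CPM at 0 min to 65.4 CPM at 105 min and 33.1 CPM at 120 min. Its reads with a poly(A) tail were 3 of 9 at 0 min and 10 of 109 at 105 min. The poly(A) share of the whole set1Δ library was 76.3% at 0 min and 52.4% at 105 min. No change was called in WT (0.232), and the difference of the curves did not pass (0.617). In WT the change passed without 105 and 120 min (0.0423), and also without WT 105 or 120 min alone.

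The FKS1 reads differed in kind from those of the other 8 genes. Only 36.6% of them carried a poly(A) tail in WT (70 of 191 reads over 10 libraries; exact 95% interval 29.8% to 43.9%) and 16.0% in set1Δ (68 of 425; 12.6% to 19.8%), intervals that cover counting error only. For the other 8 genes the share over both strains lay between 78.4% (UTR2) and 95.9% (GAS1), and over the 5060 features tested the median was 83.4%. Of these features 2.17% had a share as low as the FKS1 row or lower. Reads without a tail numbered 121 in WT and 357 in set1Δ, which is 25.0 and 67.0 CPM of all untailed reads of the libraries. With poly(A) reads only, the row was too low to test.

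The next gene downstream on the same strand, YLR342W-A (chromosome XII, 815810 to 815983), starts 182 bases after the end of FKS1. It held 191 to 1131 reads in WT and 252 to 1302 in set1Δ, of which 95.1% and 91.6% had a poly(A) tail. Its level went from 233 CPM through a median of 346 CPM to 567 CPM in WT and from 293 CPM through a median of 502 CPM to 637 CPM in set1Δ, with its maximum after release at 45 min in both strains. The log2 difference of YLR342W-A was 0.38 ± 0.13 (SE; adjusted p = 0.0600, edgeR). The files do not say to which of these 2 transcripts a 3′-end read between them was assigned, so the level of the FKS1 messenger cannot be told from the FKS1 row alone. With both rows summed, of which the FKS1 row made up 3.17% in WT and 5.40% in set1Δ, the mean was 511 ± 127 CPM in set1Δ against 388 ± 114 CPM in WT (SD, n = 10). The summed feature was higher in set1Δ at 9 of 10 times, with a log2 difference of 0.41 ± 0.13 (SE; adjusted p = 0.0400, edgeR), and no change over time was called in either strain (adjusted p = 0.0789 in WT and 0.102 in set1Δ).

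**Figure D3:**
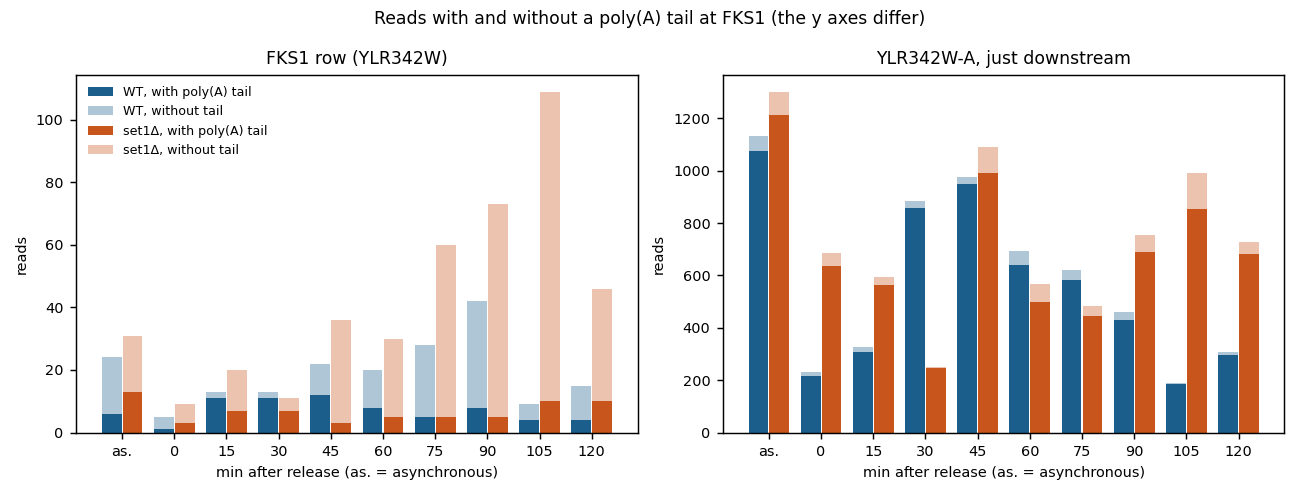
Reads of the FKS1 row (left) and of YLR342W-A, the gene just downstream on the same strand (right), in each library, with the reads that carry a poly(A) tail in full colour and those without in pale colour, WT in blue and set1Δ in orange; the y axes differ. The FKS1 row holds at most 13 reads with a tail in any library, and its highest bar, 109 reads in set1Δ at 105 min, is mostly reads without one.

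The glucan-remodelling genes were called in neither direction between the strains. GAS1 (chromosome XIII, 887003 to 888682, plus strand), the main β-1,3-glucan elongase at the cell surface, ran from 799 CPM through a median of 1622 CPM to 2432 CPM in WT and from 881 CPM through a median of 1840 CPM to 2294 CPM in set1Δ. It was higher in set1Δ at 5 of 10 times, with a log2 difference of 0.03 ± 0.12 (SE, adjusted p = 0.881, edgeR). The approximate 95% interval, made as for CHS7, ran from -0.21 to 0.27. GAS1 changed over time in both strains (adjusted p = 0.000664 in WT and 0.00405 in set1Δ, edgeR spline test). Its lowest library after release was that of 0 min in both. It then reached 2356 CPM at 45 min in WT and 2054 CPM at 30 min in set1Δ, and a second maximum at 105 min in both, of 1894 and 2294 CPM. Both calls held in each of the 18 fits without 1 library; with a spline of 4 degrees of freedom WT passed (0.0343) and set1Δ did not (0.103).

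GAS5 (chromosome XV, 268187 to 269641, plus strand), a second elongase of the family, had 249 to 585 CPM in WT (median 399) and 333 to 680 CPM in set1Δ (median 488). It was higher in set1Δ at 8 of 10 times, but the log2 difference of 0.22 ± 0.11 (SE) did not pass (adjusted p = 0.152, edgeR). GAS5 passed when the fit held each library's poly(A) share (0.0415). Its first maximum was at 60 min in both strains, 560 CPM in WT and 680 CPM in set1Δ, and its lowest library after release was that of 90 min in both. The change over time was called in neither strain (adjusted p = 0.506 in WT and 0.360 in set1Δ), while without 105 and 120 min it passed in both (0.0103 and 0.00831).

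CRH1 (chromosome VII, 876669 to 878192, minus strand), which joins chitin to β-glucan, had the widest range over time of the 9 genes. Between the lowest and the highest library from 0 to 120 min the range was 9.31-fold in WT and 15.6-fold in set1Δ. In WT it stood at 231 CPM at 0 min, 580 CPM at 15 min, 1289 CPM at 30 min, 272 CPM at 60 min, 668 CPM at 90 min and 138 CPM at 120 min. In set1Δ it stood at 262 CPM at 0 min, 1041 CPM at 15 min, 692 CPM at 30 min, 66.6 CPM at 60 min, 692 CPM at 90 min and 107 CPM at 120 min. Its first maximum thus fell at 30 min in WT and at 15 min in set1Δ, and its second at 90 min in both. The G1 cyclin gene CLN2 had maxima at the same 4 times, with 231 CPM at 30 min in WT and 533 CPM at 15 min in set1Δ, and the histone gene HTB1 at 30 and 90 min in both strains. The medians of CRH1 were 463 CPM in WT and 278 CPM in set1Δ, with overlapping ranges, and the log2 strain difference of -0.45 ± 0.25 (SE) did not pass (adjusted p = 0.211, edgeR).

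For CRH1 the test of change over time depended on the libraries in the fit. It passed in set1Δ (adjusted p = 0.0292, edgeR spline test) and not in WT (0.0604), and the difference of the curves did not pass (0.307). Over the 18 fits without 1 library, WT passed in 11 and set1Δ in 12, with the adjusted p from 8.24e-05 to 0.314 in WT and from 5.28e-06 to 0.130 in set1Δ. Without 105 and 120 min both strains passed (1.42e-05 and 7.51e-08), and so did the difference of the curves (0.000166), which also passed without 0 min (6.26e-05), without 30 min (0.00133), or without WT or set1Δ 0 or 15 min alone.

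UTR2 (chromosome V, 78053 to 79456, plus strand), the other crosslinking enzyme, had 78.4 to 220 CPM in WT (median 157) and 86.9 to 266 CPM in set1Δ (median 154). It was higher in set1Δ at 5 of 10 times, with a log2 difference of 0.09 ± 0.14 (SE; adjusted p = 0.710, edgeR). UTR2 changed over time in both strains (adjusted p = 0.0195 in WT and 0.00975 in set1Δ), with maxima at 15 and 75 min in both, that is 186 and 195 CPM in WT and 266 and 240 CPM in set1Δ. The calls were lost with a spline of 4 degrees of freedom (0.804 and 0.809). Without 1 library they were lost in 4 of 18 fits in WT (without WT 0, 15 or 75 min or set1Δ 120 min, adjusted p up to 0.201) and in 3 in set1Δ (without WT 0 or 15 min or set1Δ 45 min, up to 0.0986). CYC7 lies 179 bases downstream on the other strand and averaged 12.5 ± 6.53 CPM (SD, n = 10) in set1Δ against 3.63 ± 2.53 CPM in WT. Since the files do not say whether counting used strand, reads of such facing 3′ ends cannot be told apart; CHS3, SKT5, GAS1, GAS5 and CRH1 also face a gene on the other strand, 94 to 269 bases downstream.

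The sequences around the start codons of CRH1 and UTR2 are shown because they hold different motifs and the first maxima in WT fell at different times, 30 and 15 min. In set1Δ both first maxima fell at 15 min. The sequences span the same 300 bases, at chrVII:878143-878442 (minus) and chrV:77803-78102 (plus). Capitals mark TGAAACA in CRH1 and CGCGAAA, a form of the SCB element of the G1 factor SBF, in UTR2.
CRH1: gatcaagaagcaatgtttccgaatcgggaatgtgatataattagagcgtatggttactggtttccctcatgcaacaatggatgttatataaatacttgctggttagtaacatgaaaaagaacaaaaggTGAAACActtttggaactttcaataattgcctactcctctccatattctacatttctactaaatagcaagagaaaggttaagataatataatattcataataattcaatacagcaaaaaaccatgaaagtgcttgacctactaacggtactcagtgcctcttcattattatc
UTR2: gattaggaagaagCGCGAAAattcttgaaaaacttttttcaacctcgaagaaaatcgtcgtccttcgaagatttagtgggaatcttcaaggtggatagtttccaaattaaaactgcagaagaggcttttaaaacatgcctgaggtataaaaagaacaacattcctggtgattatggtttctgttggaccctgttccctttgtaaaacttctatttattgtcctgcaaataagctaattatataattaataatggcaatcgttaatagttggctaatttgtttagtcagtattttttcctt
In CRH1, TGAAACA lay at base -122. In UTR2, CGCGAAA lay at base -237. SCB, sought as CACGAAA or CGCGAAA, occurred in 7.70% of the 6001 windows and in CHS7 (CACGAAA at base -199) and UTR2 of the 9 genes. The MCB element ACGCGT, of the second G1 factor MBF, occurred in 3.07% and in 0 of the 9. The forkhead site, sought as GTAAACA or ATAAACA, occurred in 18.3% of windows and in GAS5. CHS1, SKT5, FKS1 and GAS1 held no match to these motifs in their windows. Both strands were searched, no matches overlapped, and a match is a description of the letters only.

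**Figure D4:**
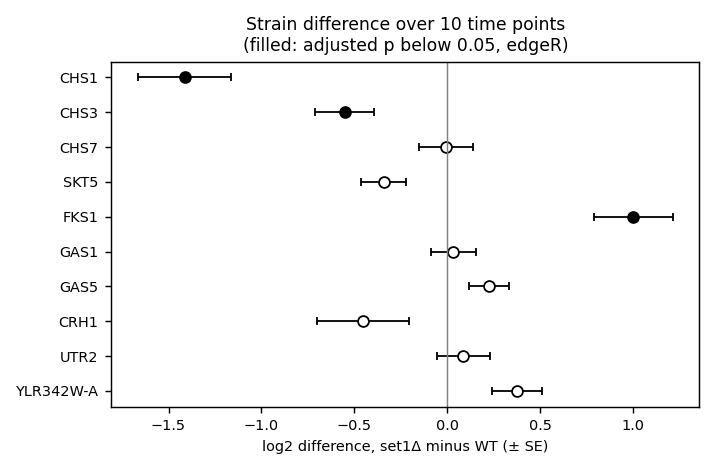
Log2 difference between strains (set1Δ minus WT, with its SE) for each gene and for YLR342W-A, fitted with edgeR over 10 time points per strain; filled points had an adjusted p below 0.05 over all 5060 features. CHS1 lies at -1.41, CHS3 at -0.55 and the FKS1 row at 1.00.

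In all, changes over time were called for 3 of 9 genes in WT (CHS1, GAS1 and UTR2), where 39.3% of features tested were called. In set1Δ they were called for 5 of 9 (CHS1, the mostly untailed FKS1 row, GAS1, CRH1 and UTR2), where 15.7% were. The difference of the curves was called for CHS1, 1 of 9, where 12.5% of features were. Without 105 and 120 min, 7 of the 9 passed in each strain, all but CHS7 and SKT5, where 24.1% of features passed in WT and 19.5% in set1Δ. The maxima among the libraries from 0 to 120 min fell at different times. They were at 0 and 75 min for CHS1, at 15 and 75 min for UTR2, at 30 (WT) or 15 (set1Δ) and 90 min for CRH1, at 45 (WT) or 30 (set1Δ) and 105 min for GAS1, and at 60 and 105 min for GAS5.

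The features whose levels moved most like each gene were sought among 3285 with at least 50 reads on average, by Pearson's r of log2(CPM + 1) centred within each strain over 18 libraries. These libraries share depth and time course, so r is a description. CHS1 was most like AMN1 (r = 0.88), SCW11 (0.88) and PPG1 (0.84). CHS3 was most like FSH3 (0.91), NRK1 (0.84) and COS2 (0.83). GAS1 was most like the histone genes HTA2 (0.92), HHF1 (0.91) and HHO1 (0.91); HTA2 and HHF1 have near-identical copies, and COS2 is of a gene family, so counting may have split their reads. CRH1 was most like RNR1 (0.93), the joint feature of YIL141W and AXL2 (0.92) and CDC21 (0.91), and UTR2 was most like CLB5 (0.83), EMI2 (0.82) and SKG6 (0.82). SKT5 was nearest AMS1 (0.86), MRX18 (0.83) and STF2 (0.81), and GAS5 nearest SHE2 (0.89), TRM11 (0.81) and OAC1 (0.79). For CHS7 they were SPO7 (0.81), NIP1 (0.79) and KGD4 (0.76), and for the FKS1 row YDR133C (0.78), NUP49 (0.77) and PTC5 (0.75). Among the 9 genes themselves the highest r were 0.67 for CHS1 and SKT5 and 0.64 for CHS7 and UTR2, and the lowest was -0.68 for SKT5 and GAS5.

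Tail lengths were tested for 8 of the 9 genes, since the FKS1 row had at least 10 poly(A) reads in only 3 libraries of each strain. Of the 8, 0 were longer and 0 shorter in set1Δ (limma, adjusted p below 0.05), where 0% of 4281 features were longer and 0.0934% shorter. At an unadjusted p below 0.05 there were 2, as there were 567 of the 4281 features. CHS3 had 27.5 ± 2.70 nt (SD, n = 10) in WT and 29.6 ± 3.23 nt in set1Δ, a difference of 2.13 ± 0.88 nt (SE; adjusted p = 0.349). GAS5 had 32.5 ± 1.88 nt in WT and 30.3 ± 1.82 nt in set1Δ, a difference of -2.20 ± 0.89 nt (adjusted p = 0.344). CHS1 had 31.3 ± 2.86 nt in WT and 31.1 ± 1.93 nt in set1Δ (n = 9 there, since the library of 30 min had 7 poly(A) reads), a difference of -0.67 ± 0.92 nt in the fit (adjusted p = 0.778). The other 5 genes had adjusted p from 0.431 to 0.832. Means over libraries lay between 23.9 nt (CHS7, set1Δ) and 33.6 nt (GAS1, WT). Over time, 0 of the 8 genes passed, where 3.14% of 3919 features did (limma). CHS1 and SKT5, 2 of the 8, had an unadjusted p below 0.05 (adjusted p = 0.102 and 0.195), as had 866 of the 3919 features.

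**Figure D5:**
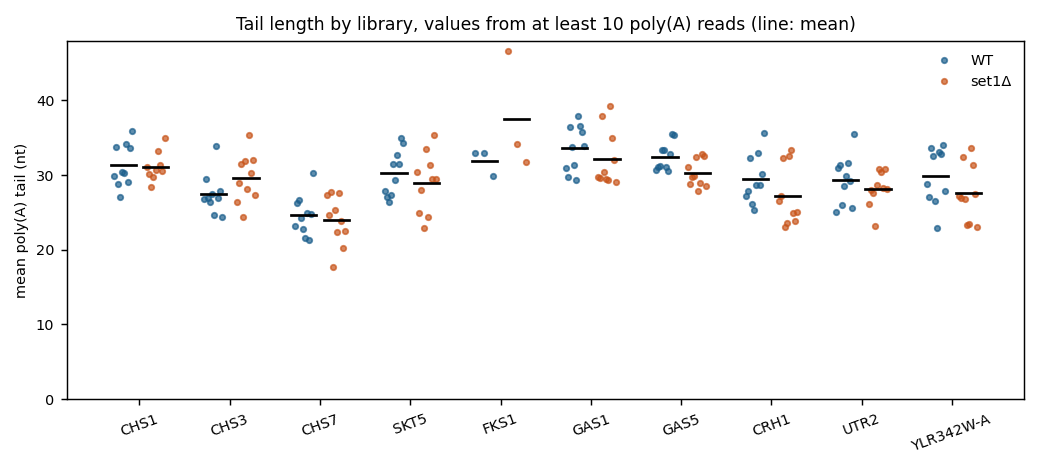
Mean poly(A) tail length (nucleotides) of each gene and of YLR342W-A, 1 point per library with at least 10 poly(A) reads, WT in blue and set1Δ in orange, with the mean over libraries as a line. The clouds of both strains overlap for every gene; CHS7 has the lowest means, at 24.6 nt in WT and 23.9 nt in set1Δ.

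The other genes of chitin synthesis were described from a list of 16, of which 14 were tested. In set1Δ 2 of them were higher and 3 lower, where 8.44% and 10.5% of all features were, and the median log2 difference was -0.04 beside -0.01 for all features. Higher were CHS2, the synthase of the primary septum, at 93.8 ± 76.0 CPM (SD, n = 10) in set1Δ against 68.2 ± 60.0 CPM in WT (log2 difference 0.53, adjusted p = 0.0293), and SHC1, a homolog of SKT5 known from sporulation, at 13.5 ± 5.93 against 5.44 ± 3.33 CPM (1.33, adjusted p = 0.00114). Lower was GFA1, the first enzyme of the pathway to the precursor of chitin, at 186 ± 44.2 CPM in set1Δ against 346 ± 161 CPM in WT (-0.80, adjusted p = 0.00343). Lower too were PCM1, a later enzyme of that pathway (-0.46, adjusted p = 0.0201), and the joint feature of YOR300W and BUD7, which encodes a cargo adaptor for Chs3 (-0.45, adjusted p = 0.0121). CHS5 (0.11, adjusted p = 0.690), BCH1 (0.21, 0.225) and GNA1 (0.05, 0.814) were the most abundant of those that did not pass. The call of CHS2 was lost in 5 of 10 fits without 1 time point (adjusted p up to 0.0776) and that of PCM1 without 0 min (0.0522).

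Of 18 other β-1,3-glucan genes 16 were tested, and in set1Δ 1 was higher and 2 were lower, beside 8.44% and 10.5% of all features; the median was -0.17. GSC2, the FKS1 paralog also called FKS2 that serves under stress and mating pheromone, was at 73.5 ± 34.0 CPM in set1Δ against 280 ± 196 CPM in WT (SD, n = 10; log2 difference -1.70 ± 0.24 SE, adjusted p = 0.000180, edgeR). It was lower in set1Δ at 9 of 10 times and had its WT maximum, 638 CPM, at 0 min. The feature of the glucanase SCW10, which also holds YMR304C-A, was lower at 10 of 10 times (-0.998 ± 0.198, adjusted p = 0.00231). GAS3 was higher (0.39 ± 0.13, adjusted p = 0.0470), a call lost in 7 of 10 fits without 1 time point and without 105 and 120 min (adjusted p = 0.154). SCW4 (0.21, adjusted p = 0.470), BGL2 (-0.21, 0.225) and EXG1 (-0.28, 0.294) were the most abundant that did not pass. Without 105 and 120 min 2 were higher, ROM1 and SMI1, and 4 lower, GSC2, the SCW10 feature, RHO1 and CRR1, where 12.9% and 13.9% of all features were.

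Of 9 β-1,6-glucan genes 8 were tested, with 0 higher, 1 lower (10.5% of all features were lower) and a median of -0.25. Those lower without 105 and 120 min were 3, KRE1, KRE6 and KRE9, where 13.9% of all features were. The lower gene was KRE1 (-0.62 ± 0.14 SE, adjusted p = 0.00472), at 97.1 ± 23.9 CPM in set1Δ against 149 ± 30.9 CPM in WT. KRE9 (-0.19, adjusted p = 0.293), KRE6 (-0.35, 0.160) and KRE5 (0.12, 0.668) did not pass over all 10 time points. The 13 genes of the cell wall integrity pathway, which senses wall stress and acts on glucan and chitin synthesis, were all tested, with 0 higher, 4 lower and a median of -0.09, where 8.44% and 10.5% of all features were higher and lower. Lower were the MAP kinase gene SLT2, at 75.9 ± 19.5 CPM in set1Δ against 234 ± 152 CPM in WT (-1.44 ± 0.21, adjusted p = 0.000221), the sensor genes MID2 (-1.01 ± 0.18, adjusted p = 0.00127) and WSC3 (-0.59 ± 0.15, 0.0121), and the transcription factor gene RLM1 (-0.88 ± 0.16, 0.00144). Among the WT libraries from 0 to 120 min, 8 of the 10 lower features of these lists had their maximum at 0 min, as CHS1 did. The others were MID2 (30 min) and KRE1 (90 min). Over all features tested 15.1% had the WT maximum at 0 min, and of the 533 lower in set1Δ 31.5%. CHS3 had its own at 30 min. The level at 0 min is that of 1 library. That WT library was also in the fit that called features lower in set1Δ. A high WT level at 0 min thus helps a feature to be called lower, so these shares are a description only. For the BUD7 and SCW10 features and WSC3, no change over time was called in WT (edgeR spline test, adjusted p = 0.741, 0.189 and 0.152). The pheromone markers were lower in set1Δ too, and their part in these differences was not tested. BCK1 (0.05, adjusted p = 0.808), WSC2 (-0.21, 0.275) and SWI6 (-0.09, 0.640) were the most abundant that did not pass.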

How the data were processed

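PAT-seq libraries of WT and set1Δ (10 each) were grouped and timed by their labels. The authors deposited whole-number read counts per feature, counts of those reads that end in poly(A), and the mean length of that tail in nucleotides. Bowtie2 2.2.5, Bowtie and the build sacCer3 are named, without roles, in the submitters' processing notes; for the counter, its annotation, strand setting and filters, nothing is given in the sources used here. All values here were computed from these 3 tables. Gene names, coordinates and promoter windows come from the RefSeq annotation and genome of assembly R64; of 6532 features 5855 matched fully, 149 hold several genes and 119 had no reads.

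Features with 10 or more reads on average entered edgeR 4.0.16 (robust quasi-likelihood fits, TMM scaling; R 4.3.3), for the strain difference over 20 libraries with time point as a factor, and for changes over time with 18 libraries and a natural spline of 5 degrees of freedom per strain. Tail lengths were tested with limma 3.58.1 (values from at least 10 poly(A) reads, at least 8 per strain; spline of 4 degrees of freedom). Benjamini-Hochberg adjustment ran over all features tested, with calls below 0.05. Alternatives included DESeq2 1.42.0, limma-voom, other scaling and filters, poly(A) reads only and left-out libraries. In leave-outs of the tail fits the minimum of values per strain was 7, or 6 for the change over time without 105 and 120 min. Fits were tested on simulated data.

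The 9 genes, the pathway and marker lists and the motifs were chosen with earlier results of these data known. Named beside the 9 are reference genes, markers, every called gene of a pathway list, its 3 most abundant uncalled genes, and the 3 features most like each gene. YLR342W-A and CYC7 were added after their values were seen. One motif that was sought is not reported here.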

Additional observations from a re-analysis of the deposited data

Results flagged for a closer look

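Among 34 groups of 10 libraries examined (level and tail length of each gene in each strain), 3 held a library far from the others, where chance gives about 1 in 20 groups. The WT level of CRH1 at 30 min was 1289 CPM, with the next WT library at 668 CPM. The WT level of the FKS1 row at 90 min was 31.5 CPM, with the next at 16.6 CPM, from 42 and 15 reads. The WT tail length of CHS3 at 75 min was 33.9 nt, with the next at 29.4 nt, in the WT library whose median tail over 3153 features was 31.6 nt, within 27.2 to 31.9 nt over the WT libraries. The strains differed in the time profile of CHS1 by a test of the difference itself (edgeR, adjusted p = 0.0451), over adjusted p from 0.0230 to 0.339 in the fits without 1 library. These results are given as values, and what lies behind them was not tested.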

How the results depend on the processing

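The strain calls of CHS1 and the FKS1 row kept their direction and stayed past the threshold in every alternative that could be fitted; with poly(A) reads only the FKS1 row was too low to test, which left 0 genes higher. The poly(A) share as a covariate gave 2 higher (FKS1 and GAS5). Genes called lower were 1 without a term for time point, which ended the call of CHS3, and 1 to 3 when any 1 time point was left out. Time point, a term of the main fit, pairs the libraries of both strains. Changes over time in WT numbered 1 with a spline of 4 degrees of freedom, 7 without 105 and 120 min, 5 without 0 min and 1 to 4 when any 1 library was left out; in set1Δ they numbered 1 with 4 degrees of freedom. Differences of the curves numbered 0 with 4 degrees of freedom or poly(A) reads only, 2 without 0 min or without 105 and 120 min, and 0 to 3 with 1 library left out. Beyond the main fit, the share of all features is given only for the strain difference and the changes over time without 105 and 120 min. The other counts cannot be set beside such a share. The cause of these changes in the counts was not tested. The fits without 105 and 120 min or without 0 min also held fewer libraries. The sign turned for values that were not called. For CHS7 in the strain difference it was 0.00669 with DESeq2 scaling, 0.00670 with DESeq2, 0.00382 with FKS1 and YLR342W-A summed, 0.041 with poly(A) reads only, and -0.104 to 0.076 with 1 time point left out. For GAS1 it was -0.057 without 105 and 120 min and -0.014 to 0.107 with 1 time point left out. For the CHS7 tail it was 0.84 nt with at least 30 poly(A) reads, 0.67 nt without 105 and 120 min and -1.21 to 0.097 nt with 1 time point left out. At a pseudocount of 5, set1Δ had 1 gene at least 2-fold below the asynchronous culture. The FKS1 sum, the leave-outs of the spline fits and the fit without 30 min were chosen after seeing the data. DESeq2 gave no test of change within 1 strain. Depth limits the FKS1 row (5 to 109 reads) and CHS1 in set1Δ at 30 min (7 reads).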

Other observations

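Within the pathway lists, the difference of time profiles between strains was called for 3 of 14 chitin genes (CHS5, GFA1 and CTS1), 2 of 16 β-1,3-glucan genes (RHO1 and EXG2), 1 of 8 β-1,6-glucan genes (KRE6) and 1 of 13 cell wall integrity genes (SLT2; edgeR), where 12.5% of 5038 features were. Of GFA1, one of the chitin genes, the WT level was 673 CPM at 0 min, its maximum, and the set1Δ maximum was 248 CPM at 15 min (adjusted p of the difference = 0.0341). Of SLT2, the cell wall integrity gene, the WT maximum was 621 CPM at 0 min and the set1Δ maximum 111 CPM at 30 min (adjusted p = 0.0171).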
